A study of Drosophila melanogaster with 150 samples.

Results

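Among 150 whole-body arrays of adult male Drosophila melanogaster, 74 were chosen by their measured signal in genes of the contractile machinery of muscle. They were selected on a muscle index, the mean log2 signal per array over those of 8 muscle genes that the platform table names. That table names 6 of them, Act88F, fln, TpnC4, Mlc1, Mlc2 and up, each with 1 probe set, and does not name Mhc or wupA. The 37 arrays of highest index form the high group, the 37 of lowest index the low group, and 76 arrays lie between them. Males of 75 recombinant inbred roo lines were hybridised, 1 array of a line being labelled control and 1 labelled lead. The labels give 250 uM lead acetate in the lead food and 250 uM sodium acetate in the control food. Each array is a pool of 65 males of 5 to 10 days from a vial, so a line has a single array per diet. The groups mix both labelled diets and many lines, since measured values and not labels define them.

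Flight in Drosophila is powered by the indirect flight muscles of the thorax, which are packed with myofibrils and with large mitochondria. Actin, tropomyosin and troponin form the thin filaments, myosin and its partners form the thick filaments, and Z-discs anchor the thin filaments at the ends of each sarcomere. Act88F encodes the actin of the flight muscles and fln encodes flightin, a thick-filament protein of the same muscles, so their transcripts mark this tissue in whole flies. In pooled whole flies, fewer cells of a type and less RNA per cell cannot be told apart.

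The index ran without a break from 7.55 to 12.44 on the log2 scale. The low group had a mean index of 8.74 ± 0.422 (SD, n = 37), the arrays between a mean of 10.34 and the high group a mean of 11.81 ± 0.408 (SD, n = 37). High and low thus differed by 3.07, or 8.43-fold, by construction. The last array inside the low group had an index of 9.36 and the first outside it 9.37. At the other edge the lowest high array had 11.25 and the next array below it 11.18. The widest step between neighbours in the ordered index was 0.281 and lay near an end, so both cut points fall within a continuous run and not in a gap.

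**Figure D1:**
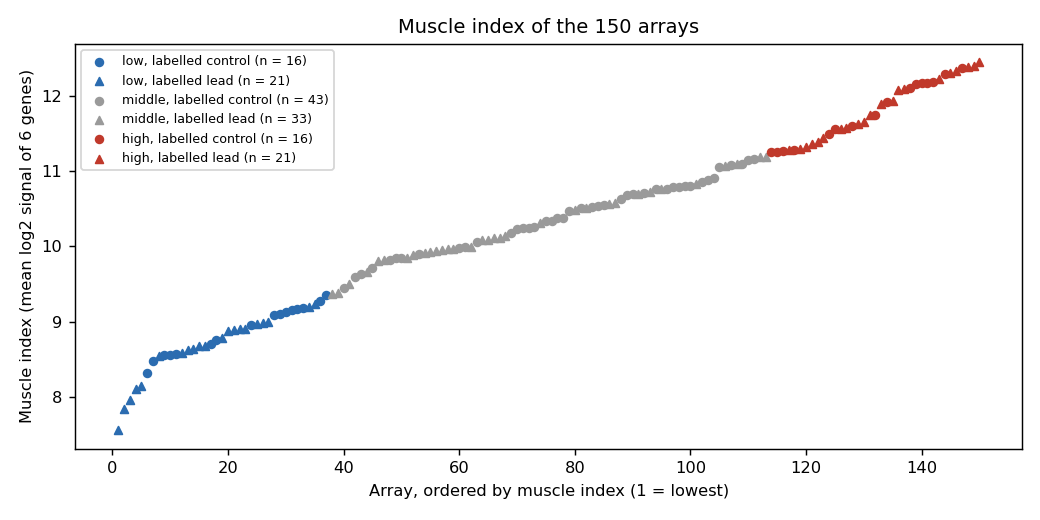
Muscle index (mean log2 signal of 6 genes) of each of the 150 arrays, ordered from lowest to highest, with colour for the low (37), middle (76) and high (37) arrays and marker shape for the labelled diet. The index climbs from 7.55 to 12.44 in small steps, and both labelled diets occur in all 3 groups.

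The 6 index genes chose the groups, so their values are given as a description, with no test. Of the genes that the marker list names, Act88F and fln were measured and Mhc was not. Act88F, the flight muscle actin, had a log2 signal of 6.98 at its lowest, 8.61 at the median and 9.31 at its highest on the low arrays. On the high arrays it was 11.77, 12.63 and 13.48, a mean difference of 4.13 or 17.5-fold. The groups do not overlap in Act88F.

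The flightin gene fln had the widest spread of the 6. Its log2 signal was 4.96, 6.60 and 8.84 (lowest, median, highest) on the low arrays and 9.99, 12.11 and 12.99 on the high arrays, a difference of 5.33 or 40.3-fold. TpnC4, the calcium-binding troponin C of flight muscle, was 3.97, 6.26 and 8.08 on the low arrays and 9.02, 11.00 and 12.07 on the high arrays, a difference of 4.61 or 24.4-fold. Neither gene overlaps between the groups. Lower signals lie closer to array background, so folds of fln and TpnC4 may understate the change.

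The other 3 genes serve many muscles besides those of flight, and their spans were smaller. Mlc1, the essential myosin light chain, was 10.85, 11.63 and 12.04 on the low arrays and 12.30, 13.03 and 13.46 on the high arrays, a difference of 1.43 or 2.70-fold. Mlc2, the regulatory light chain, was 10.05, 10.59 and 11.29 against 11.23, 12.35 and 13.01, a difference of 1.70 or 3.26-fold, and 36 of 37 high arrays lay above every low array. The troponin T gene up was 7.78, 8.65 and 9.62 against 9.09, 9.86 and 10.67, a difference of 1.25 or 2.37-fold, and 24 of 37 high arrays lay above every low array. In the arrays between, Mlc2 was 7.16 and 7.53 on the control arrays of lines 14 and 37, below every low array. The line 14 array had Act88F at 12.84 and fln at 12.30, levels of the high group, and its index was 11.09, or 11.88 over the other 5 genes. The index is set mostly by the 3 flight muscle genes, which span the widest range.

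**Figure D2:**
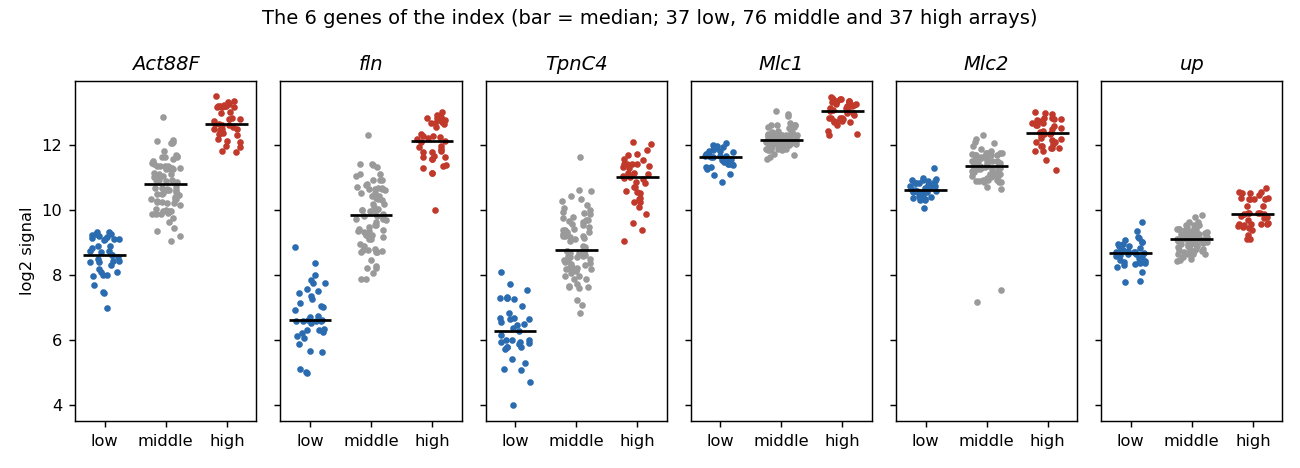
Log2 signal of the 6 index genes on the low (37), middle (76) and high (37) arrays, with a point per array and a bar at the median. Act88F, fln, TpnC4 and Mlc1 separate high from low arrays completely, Mlc2 with 1 high array inside the low range, and up with overlap.

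The labels, which the rule did not use, were then set against the groups. Arrays labelled lead made up 21 of the 37 high arrays and 21 of the 37 low arrays. Fisher's exact test, 2-sided, gave an odds ratio of 1 with a 95% interval from 0.361 to 2.77 and p = 1. By their titles 57 lines carry numbers up to 100 and 18 carry numbers above 200, with no meaning stated for this division. Lines above 200 held 11 of 37 high arrays and 6 of 37 low arrays, an odds ratio of 2.16 (95% interval 0.629 to 8.17, Fisher's exact p = 0.269). These arrays come from 8 and 4 lines, of which 3 and 2 gave both arrays to the same group, so the arrays of this test are not independent. Neither comparison passed, and both intervals are wide.

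The arrays of a line often fell in different groups. Of 75 lines, 55 have an array in the high or low group and 19 have both arrays there. Both arrays were high in 6 lines and both low in 3, while 5 lines had a high control and a low lead array and 5 the reverse. Fisher's exact test over these 19 lines gave an odds ratio of 0.733 (95% interval 0.0736 to 6.40, p = 1). Over all 75 lines the absolute difference in index between the arrays of a line had a median of 1.13, and it exceeded 1 in 41 lines. Line 42 had an index of 12.16 on its control array and 8.15 on its lead array, whereas line 31 had 8.57 and 12.33.

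Across all tested features, 7675 of 18763 probe sets passed a Benjamini-Hochberg adjusted p of 0.05 between high and low arrays in limma, or 40.9%, with 3282 higher (17.5%) and 4393 lower (23.4%). Because measured values grouped these arrays, that count is a background and is read no further. The test rests on the 76 arrays between the groups, which the contrast did not use: each probe set was regressed on the index there, and the slope is in log2 units per log2 unit of the index. In those arrays 983 probe sets passed (5.24%), 498 with a positive (2.65%) and 485 with a negative slope (2.58%). Of the 983, 93.1% were also called between high and low arrays with the same sign, leaving 455 higher in both fits (2.42%) and 460 lower in both (2.45%). Without the control arrays of lines 14 and 37, an alternative chosen after seeing the data, 759 probe sets passed in the arrays between. Then 50 of 57 respiratory chain genes and 14 of 78 cuticle genes rose in both fits, beside 302 of 11975 genes. Of the genes named by rule, Acp53C14c, Gs2, RpLP1, RpS15 and Tpi lost their slope call without those arrays, at limma adjusted p from 0.0632 to 0.117. Below, a gene "rose" or "fell with the index" where it passed in both fits. With 1 probe set per gene, the background is 2.9% of 11975 genes rising and 3.23% falling, beside 17.1% called higher and 30.3% called lower between high and low arrays.

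Thin-filament genes outside the index were mostly higher on the high arrays. Of 9 measured members of a thin-filament list, 8 were called higher and 1 lower between high and low arrays, with a median difference of 1.03 against -0.04 over all genes. In both fits 5 rose with the index and 1 fell, beside 2.9% and 3.23% of all genes. Act79B, an actin of other thoracic and leg muscles, was 9.66, 10.84 and 12.01 on the low arrays and 11.08, 12.97 and 13.67 on the high arrays, a difference of 2.05 or 4.15-fold. Its slope in the arrays between was 0.67 ± 0.108 (SE; limma adjusted p = 1.2e-05), so Act79B rose with the index although the groups overlap. Actin genes are close copies in sequence, and cross-hybridisation between their probe sets was not tested.

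TpnC41C, another adult troponin C, was 8.63, 9.65 and 10.44 on the low arrays and 10.02, 11.62 and 12.74 on the high arrays, a difference of 1.92. Its slope was 0.72 ± 0.0982 (limma adjusted p = 2.6e-07). TpnC41C rose with the index, whereas TpnC73F had a slope of 0.01 ± 0.0898 (adjusted p = 0.975 in limma) at a difference of 0.32. The tropomyosin gene Tm2 differed by 1.03 with a slope of 0.31 ± 0.0543 (limma adjusted p = 8.47e-05). The tropomodulin gene tmod, whose product caps the pointed ends of thin filaments, differed by 1.09 with a slope of 0.37 ± 0.0592 (limma adjusted p = 7.77e-06). The thin-filament elongation gene sals rose as well, by a smaller 0.37.

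The exception was cpa, the alpha subunit of the capping protein that binds the barbed ends of actin filaments in all cells. It was 8.70, 9.06 and 9.62 on the low arrays and 8.51, 8.84 and 9.39 on the high arrays, a difference of -0.25, with a slope of -0.28 ± 0.0533 (limma adjusted p = 0.000217), and so it fell with the index. The last members lay at the threshold or just beyond it in the arrays between. The formin gene Fhos differed by 1.33 (slope 0.51 ± 0.165, limma adjusted p = 0.0504) and Act87E, an actin of larval and adult muscle, by 0.57 (slope 0.16 ± 0.0519, limma adjusted p = 0.0539).

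Thick-filament and elastic genes moved less as a list. Of 11 measured members 8 were called higher and 0 lower between high and low arrays, beside 17.1% and 30.3% of all genes. The median difference was 0.31, and 3 rose with the index, beside 2.9% of all genes. Obsc, the obscurin gene of the sarcomere's M-line, was 7.50, 8.04 and 8.65 on the low arrays and 8.47, 9.35 and 10.21 on the high arrays, a difference of 1.35 with a slope of 0.50 ± 0.0729 (limma adjusted p = 9.26e-07). The paramyosin gene Prm, which codes for a rod protein of the filament core, differed by 1.17 with a slope of 0.33 ± 0.0675 (limma adjusted p = 0.000871). The muscle LIM protein gene Mlp84B differed by 0.55 with a slope of 0.23 ± 0.055 (limma adjusted p = 0.00531). All 3 rose, and the ranges of high and low arrays overlap in each.

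The projectin gene bt and the myosin chaperone gene unc-45, in contrast, differed by 0.31 and -0.01. The projectin slope of bt was 0.14 ± 0.0622 and did not pass (limma adjusted p = 0.187). For sls, which encodes the elastic sallimus and kettin proteins, 3 probe sets differed by 0.61, 0.52 and -0.10 and none had a slope past the threshold. A list of 8 regulators of muscle transcription and splicing, among them salm, which specifies flight muscle fibres in the fly, held 0 that rose or fell with the index. Its differences between high and low arrays ran from -0.35 for the splicing regulator mbl to 0.41 for the wing and flight muscle regulator vg.

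Strn-Mlck, which encodes stretchin and a myosin light chain kinase from a single long gene of the titin family, followed the index closely in 1 of its 3 probe sets. The probe set that did so had a log2 signal of 4.08, 5.88 and 7.29 on the low arrays and 9.31, 10.33 and 11.57 on the high arrays, a difference of 4.60 or 24.3-fold. The groups do not overlap, and the slope of this Strn-Mlck probe set was 1.40 ± 0.0878 (limma adjusted p = 8.46e-22). The other 2 probe sets of Strn-Mlck differed by 0.18 and 0.23, with slopes of 0.12 ± 0.0697 and -0.02 ± 0.0386 that did not pass (limma adjusted p = 0.388 and 0.885). The list above counts the probe set of highest mean, which is 1 of these 2, so Strn-Mlck is not among its members that rose.

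Mlp60A, a second muscle LIM protein gene, split in the same manner. Its brightest probe set differed by 0.40, and the slope of 0.10 ± 0.0411 did not pass (limma adjusted p = 0.168). The 2 dimmer probe sets of Mlp60A differed by 2.57 and 2.53, with slopes of 0.96 ± 0.126 and 0.96 ± 0.135 (limma adjusted p = 6.17e-08 and 3.87e-07), and both rose. The sources used here do not say which transcripts each probe set of these genes detects.

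Of 16 measured Z-disc genes, 6 were called higher and 0 lower between high and low arrays, beside 17.1% and 30.3% of all genes. In the arrays between, 4 positive slopes and 1 negative slope passed. In both fits 3 genes rose with the index and 0 fell, beside 2.9% and 3.23% of all genes. The median difference of the list was 0.09. Zasp67, a PDZ and LIM family protein of the Z-disc, was 2.89, 3.16 and 3.49 on the low arrays and 3.87, 5.23 and 6.95 on the high arrays, a difference of 2.06 with a slope of 0.46 ± 0.0832 (limma adjusted p = 0.000113). Zasp67 sat near the bottom of the signal range on all low arrays, with no overlap between groups. The alpha-actinin gene Actn, whose product crosslinks actin at the Z-disc, differed by 1.18 with a slope of 0.38 ± 0.053 (limma adjusted p = 3.87e-07), and Zasp52 differed by 0.60 and rose too. The integrin gene mys, at -0.07, and the talin gene rhea, at -0.05, anchor muscles to tendons and did not pass.

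Genes of calcium handling were divided. Of 10 measured, 3 were called higher and 3 lower between high and low arrays, beside 17.1% and 30.3% of all genes. In both fits 3 rose with the index and 0 fell, beside 2.9% and 3.23% of all genes. The median difference was 0.04. SERCA, the pump that returns calcium to the sarcoplasmic reticulum, differed by 0.70 and RyR, its calcium release channel, by 0.60. Amph, which shapes the transverse tubules, differed by 0.35. All 3 probe sets of SERCA rose, with slopes of 0.20, 0.34 and 0.24. CASK and the dystrophin gene Dys, each -0.29, did not pass in the arrays between.

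Genes of mitochondrial energy supply rose nearly as a block. Of 57 nuclear genes of the respiratory chain, 56 were called higher and 0 lower between high and low arrays, 52 rose with the index in both fits and 0 fell, beside the 2.9% of all genes. The median difference of the list was 0.66, with a range from -0.15 to 1.31. ATPsynC, the ring subunit of ATP synthase, was 11.61, 12.00 and 12.27 on the low arrays and 12.06, 12.99 and 13.47 on the high arrays, a difference of 0.97 or 1.96-fold with a slope of 0.24 ± 0.042 (limma adjusted p = 4.18e-05). In ATPsynC 36 of 37 high arrays lay above every low array. ND-B8, a subunit of complex I, had the list's largest difference, 1.31, and rose with a slope of 0.41 ± 0.11 (limma adjusted p = 0.0118).

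The 5 respiratory chain genes that did not rise were ATPsynbeta at 1.10, ND-20 at 0.66, sun at 0.25, COX7A at 0.11 and UQCR-11 at -0.15. Thus 1 of them had a large difference between high and low arrays and still missed the threshold in the arrays between. COX7AL2, by its name a paralog of a cytochrome c oxidase subunit, was 8.92, 9.97 and 10.56 on the low arrays and 11.05, 11.84 and 12.33 on the high arrays, a difference of 1.85 with a slope of 0.59 ± 0.0734 (limma adjusted p = 1.61e-08). Of a list of 20 paralogs named in this way, COX7AL2 alone rose, and the median difference was 0.01.

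Carriers of the inner mitochondrial membrane included 2 genes without overlap between groups. Mpcp1, a phosphate carrier that feeds ATP synthesis, was 8.20, 9.19 and 9.64 on the low arrays and 9.98, 11.14 and 12.34 on the high arrays, a difference of 2.03 with a slope of 0.74 ± 0.0694 (limma adjusted p = 5.85e-13). The ADP/ATP exchanger sesB was 12.33, 12.59 and 12.81 against 13.01, 13.29 and 13.53, a difference of 0.67 with a slope of 0.23 ± 0.0282 (limma adjusted p = 1.02e-08). Both rose, and the other 8 carriers and porins in the list did not pass in both fits.

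The citric acid cycle followed the respiratory chain, with 10 of 14 measured genes rising and 0 falling, beside 2.9% and 3.23% of all genes. Its median difference was 0.59. Idh3a, a subunit of the isocitrate dehydrogenase of the cycle, differed by 0.79 with a slope of 0.26 ± 0.037 (limma adjusted p = 3.87e-07), and the aconitase gene mAcon1 by 0.68. Glycolysis rose in part, 4 of 12 genes at a median difference of 0.32, with Gapdh1 at 0.93, Pfk at 0.47, Eno at 0.35 and Tpi at 0.32. Of 9 genes of the glycerol phosphate shuttle and proline oxidation, slgA at 0.40 and P5CDh1 at 0.30, the enzymes that oxidise proline, rose. Glys, the glycogen synthase gene, differed by 1.10 with no overlap between the groups.

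Genes of the mitochondrial ribosome differed by less. Of 69 measured, 28 were called higher and 4 lower between high and low arrays, beside 17.1% and 30.3% of all genes. The median difference was 0.07. In both fits 1 rose with the index (mRpS5, at 0.34), beside 2.9% of all genes, and 0 fell. Of 40 cytoplasmic ribosome genes, 31 were called lower and 0 higher between high and low arrays, beside 30.3% and 17.1% of all genes. Their median difference was -0.15. In both fits 3 of the 40 fell with the index, beside 3.23% of all genes. These were RpS26, RpS15 and RpLP1, at -0.15, -0.14 and -0.13. With the quality covariates given below 18 of the 40 fell, beside 540 of 11975 genes. Without the control arrays of lines 14 and 37 it was 1, beside 249 of 11975. Of 40 proteasome genes 14 were called higher and 0 lower between high and low arrays, and 0 rose or fell in both fits.

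**Figure D3:**
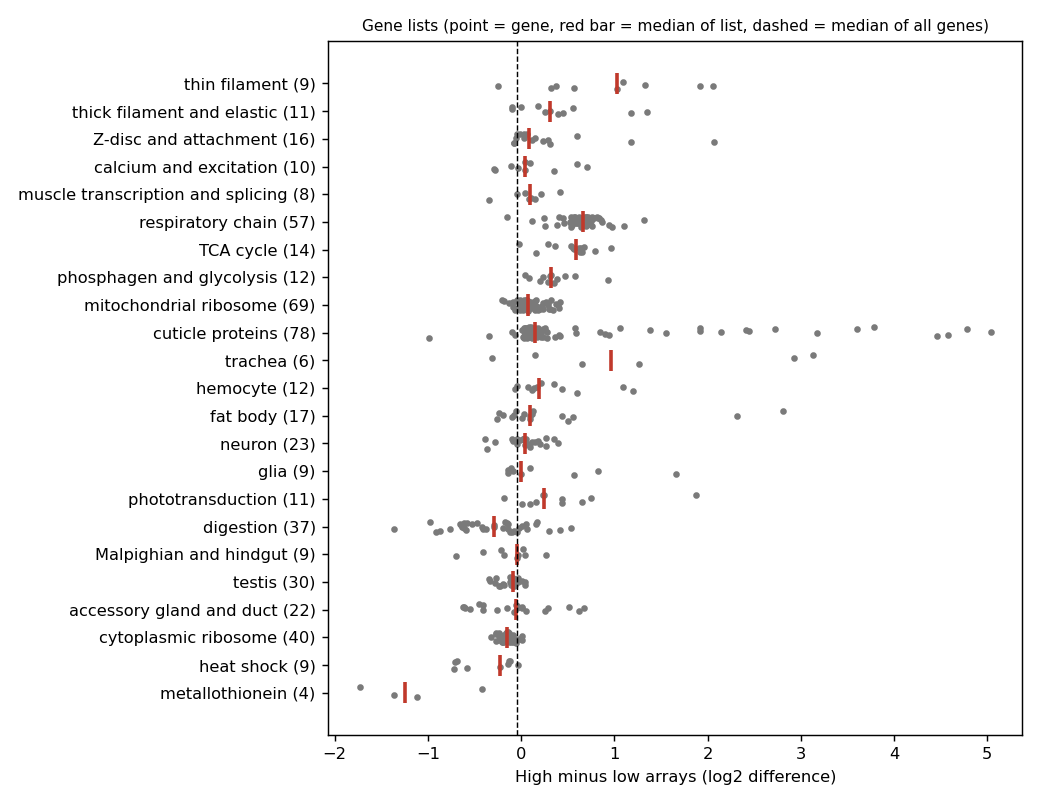
High minus low log2 difference of each measured gene (point) in 23 gene lists, with the list's median as a red bar and the median of all genes, -0.04, as a dashed line. The respiratory chain (median 0.66) and the citric acid cycle (0.59) are shifted as lists, whereas the cuticle list has a median of 0.15 and a long tail up to 5.04.

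In all, 19 probe sets (0.101% of those tested) had no overlap between high and low arrays with high above low, and 0 (0%) had high below low. Besides those of Strn-Mlck, Zasp67, Mpcp1, sesB, COX7AL2 and Glys, they include 1 probe set each of 6 respiratory chain genes, ATPsyngamma, ATPsynF, COX7B, ND-B18, UQCR-6.4 and ox. SmydA-3 and SmydA-7, which encode proteins of a SET and MYND domain family, differed by 2.08 and 1.46. CG15617 differed by 3.55, roh by 0.60 and Neb-cGP by 0.78. The last 2 probe sets have no gene name in the platform table, and the larger of their differences was 3.52.

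Genes of the cuticle stood beside the flight muscle genes among the largest differences. The adult cuticle is a layered exoskeleton of chitin and cuticular proteins laid down by the epidermis. The 10 named genes with the largest positive difference among those that rose were CG8736, Cpr92F, CG12998, Acp65Aa, Vajk3, CG7214, Cpr62Bc, Vajk2, Cpr100A and Cpr97Eb, and 5 of the 10 belong to the cuticle list. CG8736 led with a log2 signal of 3.86, 5.01 and 8.31 on the low arrays and 4.55, 10.56 and 12.33 on the high arrays, a difference of 5.27 or 38.5-fold. Its slope in the arrays between was 1.28 ± 0.315 (limma adjusted p = 0.00598).

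Cpr92F, a cuticular protein of the chitin-binding Rebers and Riddiford family, was 2.89, 4.40 and 8.62 on the low arrays and 3.50, 10.25 and 11.57 on the high arrays, a difference of 5.04 with a slope of 1.32 ± 0.337 (limma adjusted p = 0.00827). Acp65Aa, an adult cuticle protein, was 3.28, 3.99 and 8.48 against 3.54, 9.82 and 10.68, a difference of 4.78 with a slope of 1.37 ± 0.339 (limma adjusted p = 0.00623). Cpr62Bc was 3.27, 4.57 and 7.22 against 4.45, 9.57 and 10.84, a difference of 4.58 with a slope of 1.22 ± 0.265 (limma adjusted p = 0.00153). In each of these genes the median high array lay above all low arrays, but 1 high array lay below the median of the low group. The remaining 6 differed by 5.03 (CG12998), 4.76 (Vajk3), 4.70 (CG7214), 4.50 (Vajk2), 4.46 (Cpr100A) and 3.79 (Cpr97Eb).

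That array was the same for all 10 genes, the array labelled control of line 51. Its index of 11.27 placed it near the lower edge of the high group, with Act88F at 12.48, TpnC4 at 11.40 and fln at 9.99, the lowest fln of any high array. Its Cpr62Bc signal was 4.45, where the next lowest high array had 7.29. Its CG8736 signal was 4.55, where the next lowest high array had 8.77. Of the 15 cuticle genes that rose, it was the lowest high array in 12.

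On the same line 51 array the muscle genes were also split. Strn-Mlck, at 10.08, was close to the high median of 10.33, and Mpcp1, at 10.59, was above every low array. Act79B at 11.08, TpnC41C at 10.02 and ATPsynC at 12.06 were the lowest of all high arrays and lay within the low range. The difference between the 3' and 5' control probe sets of Act5C, which grows as RNA degrades, was 3.68 there. That is near the top of the high group's range of 1.64 to 4.04, whose mean was 2.64. The same difference was 2.68 for eIF-4a and 2.27 for GAPDH, against high-group means of 1.99 and 1.86. Whether the RNA of this array was degraded was not tested. Without this array, an alternative chosen after seeing the data, 7737 probe sets were called between high and low arrays, against 7675 with it, and the cuticle differences were slightly larger, 5.43 for CG8736 and 4.72 for Cpr62Bc.

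**Figure D4:**
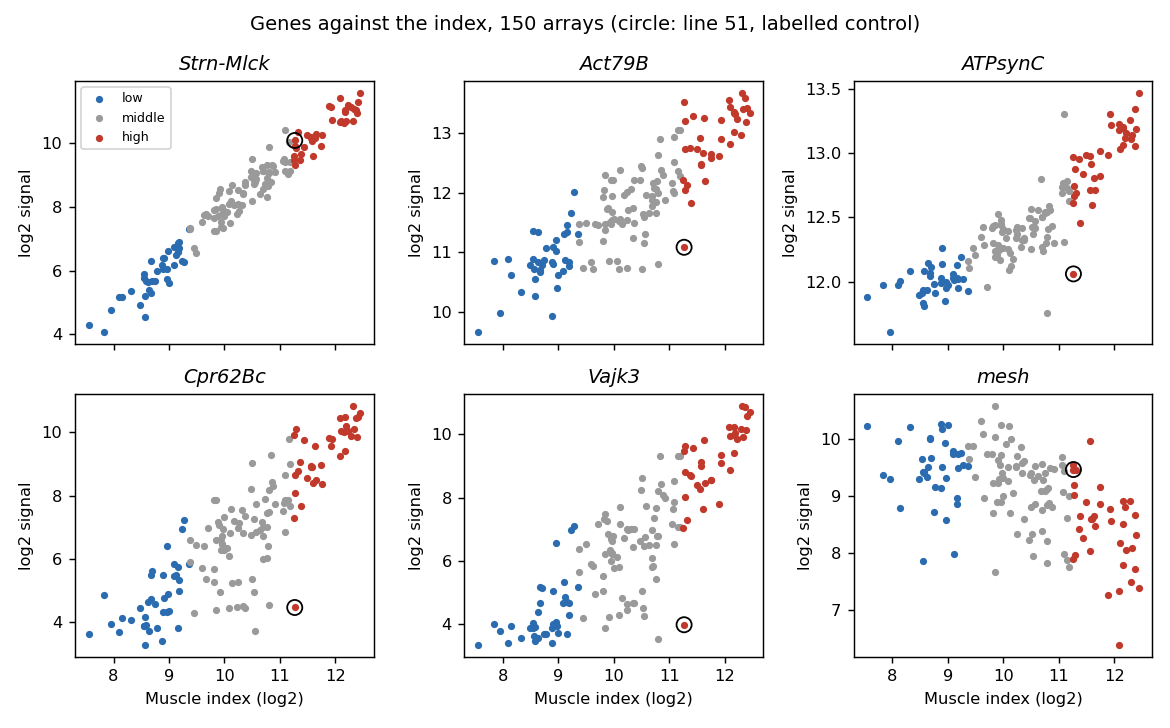
Log2 signal of 6 genes against the muscle index on all 150 arrays, coloured by group, with the line 51 array labelled control circled. Strn-Mlck (the probe set without overlap) forms a narrow band, Cpr62Bc and Vajk3 spread widely in the middle of the index, and mesh falls at high index.

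The cuticle list as a whole holds 78 measured genes, with a wide spread of differences. Between high and low arrays 49 were called higher and 2 lower, beside 17.1% and 30.3% of all genes. In both fits 15 rose with the index and 0 fell, beside 2.9% and 3.23% of all genes. The list's median difference was 0.15, and 16 genes differed by more than 1. Among the 18 members above the median of mean signal the median difference was 1.16, with 14 called higher and 8 rising in both fits. Of all 7955 genes above that median, 1208 were called higher and 308 rose in both fits. The mean was taken over all arrays, high arrays included, so a cuticle gene with a large positive difference passes this filter more easily. The larger median of these cuticle genes may thus be partly built in. The members that rose spanned 0.85 for Cpr92A to 5.04 for Cpr92F. In the 76 arrays between the groups, Cpr62Bc and Vajk3 ran from low-group levels to high-group levels at a similar index, as the plot of genes against the index shows.

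Genes of chitin handling were set beside these after their values had been seen, so they are described without a test. The chitin synthase gene kkv had a log2 signal of 3.32, 3.90 and 5.04 on the low arrays and 4.26, 7.29 and 8.44 on the high arrays, a difference of 3.03. The chitinase genes Cht7, Cht5, Cht6 and Cht2 differed by 3.28, 2.56, 2.35 and 0.91, and the chitin-binding genes obst-A, Gasp and obst-B by 3.76, 3.13 and 2.35. The deacetylase genes Cda4 and Cda5 differed by 1.89 and 1.41, while knk and mmy, which act in chitin assembly and precursor supply, differed by 0.88 and 0.20. Genes of cuticle colour were divided. The yellow gene y differed by 2.27 and the ebony gene e by 2.51, while ple and Ddc, the first enzymes of dopamine synthesis, differed by 0.08 and 0.04. The signal of ple reached 4.08 at most, near the bottom of the signal range, so its small difference says little. In the same set stw and t differed by 1.45 and 0.38.

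Lsp2, a storage protein that the larval fat body makes, was also described in this manner. It was 4.15, 4.60 and 8.68 on the low arrays and 4.70, 7.80 and 10.68 on the high arrays, a difference of 2.80, and the groups overlap. Fbp1, the receptor of such storage proteins, differed by 2.40. Neither Lsp2 nor Fbp1 passed in the arrays between (limma adjusted p = 0.408 and 0.538). The labels give the range of 5 to 10 days for all arrays and no age for a single array.

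Of 6 listed tracheal genes, 5 were called higher and 1 lower between high and low arrays, beside 17.1% and 30.3% of all genes. In both fits 4 rose and 0 fell, beside 2.9% and 3.23%, at a median difference of 0.96. The 4 were the chitin deacetylase genes verm and serp, at 3.13 and 2.92, uif at 1.26 and pio at 0.66. These act on the chitin lining of the tracheae, and verm and serp are also expressed in epidermis. The tracheal receptor gene btl, at 0.15, and ASPP, the member called lower at -0.31, did not pass in the arrays between.

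Genes that fell with the index changed by less than those that rose. The 10 named genes with the largest negative difference among those that fell in both fits were Nazo, LysX, Damm, CG12780, CG10943, nub, CG34236, Mur29B, CG18480 and mesh, at -1.39 to -1.02. LysX, a lysozyme gene, was 4.60, 8.10 and 9.85 on the low arrays and 3.75, 6.78 and 9.33 on the high arrays, a difference of -1.37 or 2.58-fold, with a slope of -1.11 ± 0.286 (limma adjusted p = 0.00905). The smooth septate junction gene mesh, which seals the midgut epithelium, was 7.85, 9.50 and 10.25 against 6.38, 8.55 and 9.97, a difference of -1.02 with a slope of -0.58 ± 0.133 (limma adjusted p = 0.00257). The POU factor gene nub, which acts in midgut enterocytes among other tissues, differed by -1.18 with a slope of -0.64 ± 0.147 (limma adjusted p = 0.0032). In all 10 genes the groups overlap.

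Few genes of the digestion list passed in the arrays between, although its median slope there was -0.28, against 0.001 over all genes. Of 37 measured genes 2 were called higher and 11 lower between high and low arrays, beside 17.1% and 30.3% of all genes. The list's median difference was -0.29. In both fits 1 gene (2.70%) fell with the index, LysX, and 0 rose, beside 3.23% and 2.9% of all genes. The median difference was 0.08 among arrays labelled control, -0.68 among arrays labelled lead and 0.11 in lines above 200. Its sign thus differed between these subsets, whose medians were not tested against each other. No probe set passed the limma test of a slope on the index that differs by labelled diet, so a difference between diets is not shown.

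**Figure D5:**
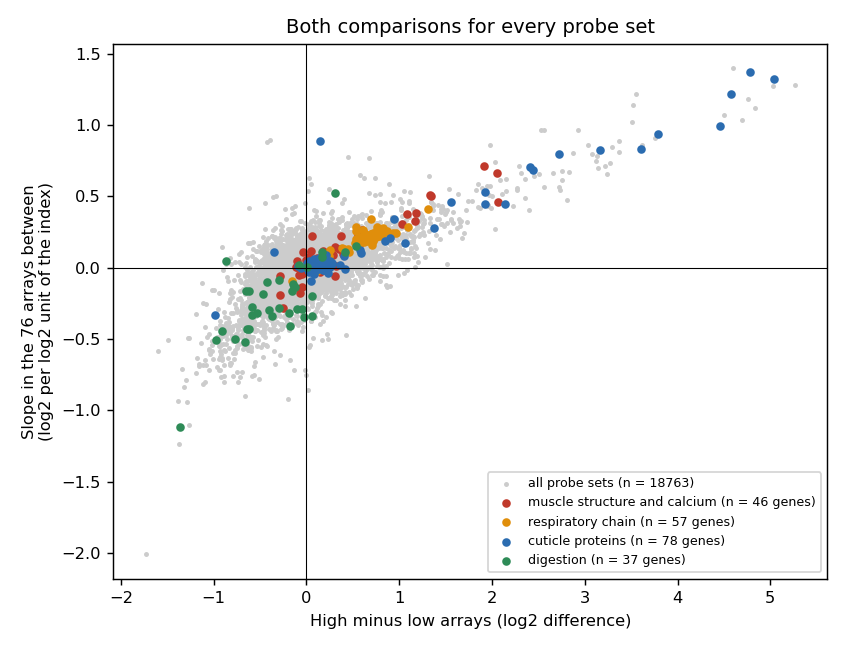
Slope on the muscle index in the 76 arrays between the groups (log2 per log2 unit of index) against the high minus low log2 difference, for 18763 probe sets in grey and for genes of 4 kinds in colour. Cuticle genes reach the far right (up to 5.04), respiratory chain genes cluster near 0.66, and LysX is the lowest digestion gene.

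Markers of other tissues were read over whole lists, beside 2.9% of all genes rising and 3.23% falling in both fits. Of 23 neuronal genes 3 rose with the index (Gad1, nSyb and VGlut, at 0.40, 0.35 and 0.26) and 0 fell, with a median difference of 0.04. Of 11 phototransduction genes chp at 0.75 and inaC at 0.44 rose, and of 9 glial genes Gs2 at 0.56 rose. In the fat body (17 genes), the hemocyte (12), the Malpighian tubule and hindgut (9), the oenocyte (7) and the yolk and eggshell (15) lists 0 genes rose or fell in both fits. Of 30 testis genes 1 (3.33%) fell, twe at -0.29, and of 22 accessory gland and duct genes 1 (4.55%) rose, Acp53C14c at 0.62. Called higher and lower between high and low arrays were 8 and 4 neuronal, 6 and 1 phototransduction and 3 and 1 glial genes. The same counts were 5 and 3 for fat body, 7 and 0 for hemocyte and 2 and 4 for oenocyte genes. They were 1 and 3 for Malpighian tubule and hindgut and 1 and 0 for yolk and eggshell. For testis they were 0 and 6, and for accessory gland and duct 4 and 8. Of all genes 17.1% were called higher and 30.3% lower. Among hemocyte genes the collagen IV genes vkg and Col4a1 differed by 1.20 and 1.09 between high and low arrays without passing in the arrays between.

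Metallothioneins, small cysteine-rich metal-binding proteins, were called lower on the high arrays, all 4 of them, beside 30.3% of all genes. In the arrays between 0 passed. The calls depended on which arrays were compared. Among arrays labelled lead 4 were called lower (median difference -1.71), beside 2399 of 11975 genes. Among arrays labelled control 0 were (median -0.63), beside 2287 genes, and in lines above 200 0 were, beside 464 genes. Without the lines of the 8 arrays of lowest correlation 1 was called. No probe set passed the limma test of a slope on the index that differs by labelled diet, so the calls are not shown to differ between diets. MtnB was 4.76, 12.66 and 13.37 on the low arrays and 5.29, 6.88 and 13.50 on the high arrays, a difference of -1.73 with a slope of -2.01 ± 0.723 (limma adjusted p = 0.0901). MtnB splits the whole series at a gap from 8.99 to 11.02, and 11 of 37 high arrays lay above it against 20 of 37 low arrays. Fisher's exact test, 2-sided, gave an odds ratio of 0.365 (95% interval 0.123 to 1.03) and p = 0.0586. MtnD, MtnC and MtnA differed by -1.37, -1.12 and -0.42, and the smallest adjusted p of their slopes in limma was 0.054.

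Of 22 listed heat shock genes 9 were measured. Between high and low arrays 6 of the 9 were called lower and 0 higher, beside 30.3% of all genes called lower. Hsp68 was at -0.72, Hsp27 at -0.71 and Hsp26 at -0.69. None passed in both fits. Of 26 antimicrobial genes 1 fell in both fits (3.85%), PGRP-LE at -0.23, and 0 rose, beside 3.23% of all genes falling. Of 8 clock genes cyc, a core activator of the clock, fell at -0.33.

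The relation of genes to the index was also compared between labelled diets over all 150 arrays. No probe set had a slope that differed between arrays labelled control and lead in limma (0 of 18763, 0%), the smallest adjusted p was 0.276, and 1349 passed at an unadjusted p under 0.05. Within each labelled diet alone, 55 of 57 respiratory chain genes were called higher between high and low arrays, with medians of 0.68 (control) and 0.65 (lead), beside 11.6% and 11.4% of all genes. In both fits 14 of them rose among arrays labelled control, beside 0.91% of all genes, and 29 among those labelled lead, beside 0.618%. In lines 1 to 100 the median difference was 0.64 and 50 rose in both fits, beside 1.82% of all genes. In lines above 200 it was 0.73 and 1 rose, beside 0.0501%. Of 78 cuticle genes 42 were called higher between high and low arrays labelled control and 34 between those labelled lead. In lines 1 to 100 it was 40, beside 1691 of 11975 genes, and in lines above 200 it was 19, beside 675. In both fits 5 cuticle genes rose among arrays labelled control and 0 among those labelled lead. In lines 1 to 100 10 rose, and in lines above 200 0 rose. The slope fits of arrays labelled lead and of lines above 200 rest on 33 and 19 arrays. A count of 0 there does not show that a relation is absent.

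Signs of RNA and array quality moved with the groups in part. They were compared by permutation of the difference of means over the 74 arrays, 2-sided, with Benjamini-Hochberg adjustment over 6 measures. The 3' minus 5' difference of the GAPDH control probe sets was 1.86 ± 0.379 (SD, n = 37) on the high arrays and 2.20 ± 0.419 (SD, n = 37) on the low arrays, an adjusted p of 0.0036. For Act5C it was 2.64 against 2.93 and for eIF-4a 1.99 against 2.23, each with an adjusted p of 0.0536. The array median was 5.40 against 5.43 (adjusted p = 0.00516) and the median correlation with other arrays 0.978 against 0.981 (adjusted p = 0.0355).

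GAPDH is itself an enzyme gene of the glycolysis list and Act5C an actin gene, so their probe sets are not wholly separate from the lists above. With these 3 differences and the array median as covariates, a fit chosen after seeing the data, 54 of 57 respiratory chain genes and 16 of 78 cuticle genes rose in both fits, beside 3.14% of all genes. The medians were then 0.53 and 0.12, and of 40 cytoplasmic ribosome genes 18 fell, beside 540 of 11975 genes. Between high and low arrays 3979 probe sets were called in that fit, against 7675, and in the arrays between 1446 against 983.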

How the data were processed

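RNA of pooled males was measured on 150 Affymetrix arrays. The deposited values were read as log2 signal from their range of 1.93 to 14.04; the sources used here do not state the log base, summarisation or normalization. They were used unchanged. Of 18952 probe sets, 183 array controls and the 6 of the index were left out, with no filter on signal, and probe sets with exactly 1 symbol in the platform table (13646) were named. Fits used limma 3.58.1 in R 4.3.3, without a line block, and labels used Fisher's exact test in SciPy 1.17.1. For a gene with several probe sets the one of highest mean was counted. Permutation tests drew 1e+05 resamples. Arrays have no depth, so their number limits the precision, and p-values measure the spread between these arrays. Lines give the pairing in the labels, and line as a random block changed no call among the genes named by the rule below. The scripts were tested on simulated data.

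The members and lists were chosen with earlier results of these data known. Named genes were the index genes, up to 10 per direction with the largest difference among genes called in both fits, up to 4 such members per list, and all members of muscle lists with under 10 measured genes. Exceptions are said in the text to have been chosen after their values were seen, as were the individual probe sets of a gene, the genes without overlap and list members named as examples that did not pass. Alternatives were other scalings, filters, thresholds, weights, covariates, blocks, a 2-gene index and subsets of arrays.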

Additional observations from a re-analysis of the deposited data

How the results depend on the processing

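The count of 7675 probe sets between high and low arrays became 5003 above the median of mean signal (1478 higher, 3525 lower), 4901 among arrays labelled control, 4759 among arrays labelled lead, 1414 in lines above 200 (860 higher, 554 lower) and 3979 with 4 quality covariates, an alternative chosen after seeing the data. The line as a replicate block gave 7671. A slope over all 150 arrays gave 8380, and with line as a fixed replicate block 4472, where inaC (adjusted p = 0.181) and Acp53C14c (0.0792) lost their call. Centring each array on its median turned the split to 4407 higher and 3715 lower of 8122.

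The count of 983 in the arrays between became 453 and 1534 at thresholds of 0.01 and 0.1, 1552 with the Act5C difference as a covariate, 509 among arrays labelled control, 108 among arrays labelled lead, 572 with an index of Act88F and fln alone, 405 in lines 1 to 100 and 10 in lines above 200, against 978 with the replicate block. Subsets hold fewer arrays. With the 2-gene index the 3' minus 5' differences were -0.340 for Act5C and -0.313 for eIF-4a, at adjusted permutation p of 0.0279 and 0.0202. Of the values of named genes under all alternatives, 0 changed sign while called; of those between high and low arrays 1162 kept their call and 41 lost it, and of the slopes 806 kept and 255 lost it. The causes of the other shifts were not tested. An index over all probe sets of the 8 genes was not run, since each named gene has 1, and the 3-gene index could use 2.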
